A study of Mus musculus with 6 samples.

Results

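The 10 genes described here encode enzymes of folate, glycine and methionine metabolism and were chosen by name from the 16623 genes of the table: Aldh1l1, Shmt1, Gldc, Mat1a, Gnmt, Ahcy, Bhmt, Bhmt2, Cbs and Cth. All 10 were measured. They were selected on earlier results for the difference between genotypes in these same mice, so that difference is given as a description and nothing is read from its size. Livers of 3 wild-type (WT) and 3 SIRT7 KO mice, all 5 to 6 months old, were profiled cell by cell with 10x Genomics Chromium 3' libraries, in which each counted molecule (UMI) marks the end of 1 transcript. SIRT7 is a histone deacetylase, and the study used the KO mice, fed chow, as a model of spontaneous fatty liver disease. The knockout is not described as limited to any cell type. Isolated hepatocytes and nonparenchymal cells, which are the macrophages, lymphocytes, endothelial and other cells of the liver, were mixed for each library.

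Folate carries single-carbon units taken from serine and glycine, and the methionine cycle turns methionine into S-adenosylmethionine, the methyl donor of the cell. The homocysteine that is left is either methylated back to methionine or passed to cysteine by transsulfuration. The liver is the main site of methionine breakdown, and several of these enzymes are far more abundant in hepatocytes than in other cells. In the RefSeq annotation of GRCm38.p6, the folate and glycine genes lie on 3 chromosomes, Aldh1l1 at chr6:90550768-90599171, Shmt1 at chr11:60788897-60811265 and Gldc at chr19:30098441-30175441. Those of the methionine cycle are Mat1a at chr14:41105012-41124428, Gnmt at chr17:46725664-46729211 and Ahcy at chr2:155059310-155074497, with the methyltransferases Bhmt at chr13:93616891-93637758 and Bhmt2 at chr13:93656097-93674302. The transsulfuration genes are Cbs at chr17:31612623-31637233 and Cth at chr3:157894248-157925081.

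Bhmt and Bhmt2 lie close together on chromosome 13 and encode related enzymes. Bhmt was lower in every KO mouse in hepatocyte-like cells and Bhmt2 overlapped between genotypes, with no test between the genes, and their promoters are shown side by side. Both are the 250 bases before the gene start on the minus strand from RefSeq (GRCm38.p6), Bhmt at chr13:93637759-93638008 and Bhmt2 at chr13:93674303-93674552, and capitals mark AGGTCA, a nuclear receptor half-site, searched on both strands.
Bhmt: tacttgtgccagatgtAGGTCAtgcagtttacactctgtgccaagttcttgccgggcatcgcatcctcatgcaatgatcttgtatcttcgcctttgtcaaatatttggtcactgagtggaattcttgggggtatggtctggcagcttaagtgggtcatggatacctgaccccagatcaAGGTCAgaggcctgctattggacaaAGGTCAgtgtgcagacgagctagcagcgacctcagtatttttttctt
Bhmt2: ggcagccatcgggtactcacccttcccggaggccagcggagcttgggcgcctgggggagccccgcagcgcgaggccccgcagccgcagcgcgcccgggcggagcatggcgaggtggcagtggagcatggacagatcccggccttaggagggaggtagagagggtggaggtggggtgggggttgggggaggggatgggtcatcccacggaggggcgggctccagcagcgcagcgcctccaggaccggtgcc
The Bhmt window held 3 matches and the Bhmt2 window 0. AGGTCA was found in 4 of the 8 enzymes with a RefSeq promoter entry, which were Aldh1l1, Gnmt, Ahcy and Bhmt, and in 14% of all 32851 promoters. GTTAAT was found in 0 of the 8 (6.4% of all promoters), CACGTG in 1, Cbs (6.0%), and TATAAA in 0 (12.4%). The Bhmt window was 48.0% G and C with 5 CpG, while that of Bhmt2 was 74.0% G and C with 20 CpG, against medians of 52.4% and 6 over all promoters. No measurement here bears on which factors bind these windows.

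The table held 11610 cells, with 2511947 to 11069411 UMIs per mouse, and 13 cell barcodes were shared by more than 1 mouse. Of 10 clusters, clusters 3 and 5 were named hepatocyte-like from 10 hepatocyte markers. The mean log2 fold of these over the mean of the other clusters, the other hepatocyte-like one included, was 1.73 and 1.04. All 10 were detected, which free RNA also allows in other clusters. Among the 10 genes of highest fold, 1 was such a marker in cluster 3 and 0 in cluster 5. After 68 cells marked as doublets or high in hemoglobin were left out, clusters 3 and 5 held 2933 cells, 100 to 782 per WT mouse and 284 to 926 per KO mouse. Levels are means over the cells of a mouse in CP10K, which is UMIs per 10000 UMIs of a cell. Sirt7 in hepatocyte-like cells was 0.782, 0.376 and 0.923 CP10K in WT mice 1 to 3 and 0.156, 0.0675 and 0.149 CP10K in KO mice 1 to 3, with every KO mouse below every WT mouse. Clusters 3 and 5 differed in Malat1, a nuclear RNA, which was 2.35 to 20.6 CP10K in cluster 3 and 299.9 to 538.6 CP10K in cluster 5. Cluster 5 made up 40.0, 20.04 and 45.0% of hepatocyte-like cells in WT mice and 43.0, 18.0 and 80.4% in KO mice, so members are also given within each cluster. Among markers of other cell types in hepatocyte-like cells, the 9 macrophage markers summed to 0.677 to 2.50 CP10K in WT and 0.976 to 5.16 CP10K in KO mice, with none at 0. The 8 neutrophil markers summed to 0.175 to 1.74 CP10K in WT and 0.243 to 7.73 CP10K in KO mice, and in cluster 5 to 0.0 to 0.168 CP10K in WT, with Retnlg and Csf3r at 0, and 0.285 to 13.1 CP10K in KO mice. The 9 T and NK markers summed to 0.0424 to 2.97 CP10K in WT, with Ncr1 at 0, and 0.312 to 2.47 CP10K in KO mice, and in cluster 5 to 0.0310 to 3.27 and 0.360 to 8.27 CP10K. In cluster 5 the 8 stellate markers summed to 0.176 to 0.389 CP10K in WT and 0.474 to 2.30 CP10K in KO mice. The 9 dendritic markers summed there to 0.880 to 2.20 CP10K in WT, with 6 at 0, and 1.56 to 5.37 CP10K in KO mice, with 0 at 0. In cluster 5 every KO mouse was thus above every WT mouse in the neutrophil and the stellate markers, while the other lists overlapped. The part of other cells in the values below was not tested.

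Among the folate and glycine enzymes, Aldh1l1 was lower in every KO mouse than in every WT mouse, Shmt1 overlapped between genotypes, and Gldc was lower in every KO mouse in cluster 3 but not in cluster 5. Aldh1l1, the cytosolic dehydrogenase that oxidizes formyltetrahydrofolate and returns free tetrahydrofolate, was at 8.43, 8.73 and 7.12 CP10K in WT mice and 2.96, 6.24 and 3.13 CP10K in KO mice. The groups did not overlap, and the log2 difference (KO minus WT) was -1.05 (SE 0.43). Within cluster 3 the Aldh1l1 levels were 9.94, 9.74 and 10.2 CP10K in WT and 3.46, 6.77 and 5.06 CP10K in KO mice, a log2 difference of -1.01 (SE 0.25). In cluster 5 the Aldh1l1 levels were 6.18, 4.72 and 3.36 CP10K in WT and 2.29, 3.81 and 2.66 CP10K in KO mice, and the ranges overlapped. Shmt1, the cytosolic enzyme that moves a carbon unit from serine to tetrahydrofolate, was at 2.47, 3.43 and 2.83 CP10K in WT and 2.36, 2.92 and 3.83 CP10K in KO mice. Its groups overlapped throughout, with a log2 difference of 0.05 (SE 0.40).

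Gldc encodes the decarboxylase of the mitochondrial glycine cleavage system. In all hepatocyte-like cells it was at 2.35, 1.93 and 1.73 CP10K in WT and 1.196, 1.07 and 1.93 CP10K in KO mice, with the level of KO mouse 3 equal to that of a WT mouse to 3 digits. In cluster 3 every KO mouse was below every WT mouse, with 2.87, 2.04 and 1.99 CP10K in WT and 0.711, 1.04 and 1.30 CP10K in KO mice. In cluster 5 the levels were 1.58, 1.51 and 1.41 CP10K in WT and 1.84, 1.205 and 2.08 CP10K in KO mice, and the groups overlapped. The log2 differences were -1.16 (SE 0.32) in cluster 3 and 0.15 (SE 0.37) in cluster 5. KO mouse 3, whose hepatocyte-like cells were mostly of cluster 5, was the highest KO mouse in both clusters.

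In the methionine cycle, Mat1a was lower in every KO mouse, and Gnmt and Ahcy overlapped between genotypes. Mat1a, the liver methionine adenosyltransferase that makes S-adenosylmethionine, was at 33.5, 26.9 and 29.5 CP10K in WT and 20.3, 21.4 and 20.5 CP10K in KO mice. The 3 KO mice lay within a narrow range below the WT mice, and the log2 difference was -0.53 (SE 0.43). In cluster 5 the Mat1a levels were 49.5, 35.7 and 28.6 CP10K in WT and 19.0, 17.4 and 22.1 CP10K in KO mice, a log2 difference of -0.93 (SE 0.36), and in cluster 3 it was -0.45 (SE 0.22). Gnmt, which uses S-adenosylmethionine to methylate glycine, was at 46.2, 31.2 and 33.5 CP10K in WT and 30.8, 43.6 and 21.4 CP10K in KO mice. KO mouse 2 stood above 2 of the WT mice, and the log2 difference was -0.25 (SE 0.47). Ahcy, which splits S-adenosylhomocysteine into homocysteine and adenosine, was the scarcest in UMIs, with 5 to 41 UMIs per mouse and levels of 0.275 to 0.377 CP10K in WT and 0.133 to 0.450 CP10K in KO mice. No direction is read from it.

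Of the homocysteine methyltransferases, Bhmt was lower in every KO mouse and Bhmt2 overlapped. Bhmt, which remethylates homocysteine with a methyl group of betaine, was at 45.8, 39.8 and 35.6 CP10K in WT and 19.7, 14.8 and 32.8 CP10K in KO mice. The groups did not overlap, with KO mouse 3 just under the lowest WT mouse, and the log2 difference was -0.92 (SE 0.47). In cluster 5 the Bhmt levels were 54.1, 83.5 and 52.5 CP10K in WT and 23.3, 12.2 and 34.5 CP10K in KO mice, a log2 difference of -1.53 (SE 0.40). Cluster 3 gave 40.2, 28.9 and 21.8 CP10K in WT and 16.99, 15.3 and 25.7 CP10K in KO mice, where KO mouse 3 stood above WT mouse 3. Bhmt2, the related enzyme that takes its methyl group from S-methylmethionine, was at 2.65, 3.29 and 3.01 CP10K in WT and 2.62, 3.17 and 3.14 CP10K in KO mice, so the groups overlapped almost fully. In cluster 5 alone, every KO mouse was above every WT mouse in Bhmt2, with 2.45, 2.83 and 2.13 CP10K in WT and 3.06, 3.80 and 3.27 CP10K in KO mice, as were 13.0% of all genes there. The last 500 bases of Bhmt share 276 bases at 98.2% identity with Gm5096, which reached 0.00686 to 0.0991 CP10K in hepatocyte-like cells. Bhmt2 shares 98 and 100 bases of its end with 2 further transcripts, which are not among the genes measured. How reads that match more than 1 of these copies were counted was not tested.

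Of the transsulfuration enzymes, Cth was lower in every KO mouse and Cbs was not. Cbs, which joins homocysteine and serine to cystathionine, was at 5.59, 4.17 and 5.06 CP10K in WT and 4.97, 4.64 and 6.98 CP10K in KO mice. The highest mouse was a KO mouse and the lowest a WT mouse, and the log2 difference was 0.15 (SE 0.41). Cth, which splits cystathionine to give cysteine, was at 15.5, 7.50 and 8.32 CP10K in WT and 4.38, 6.24 and 3.22 CP10K in KO mice, a log2 difference of -1.14 (SE 0.45). In cluster 5 the Cth levels were 13.4, 7.60 and 5.15 CP10K in WT and 3.11, 2.63 and 2.58 CP10K in KO mice, and the KO mice lay close together below all WT mice. Cluster 3 held 16.9, 7.48 and 10.9 CP10K in WT and 5.33, 7.04 and 5.85 CP10K in KO mice, again without overlap.

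**Figure D1:**
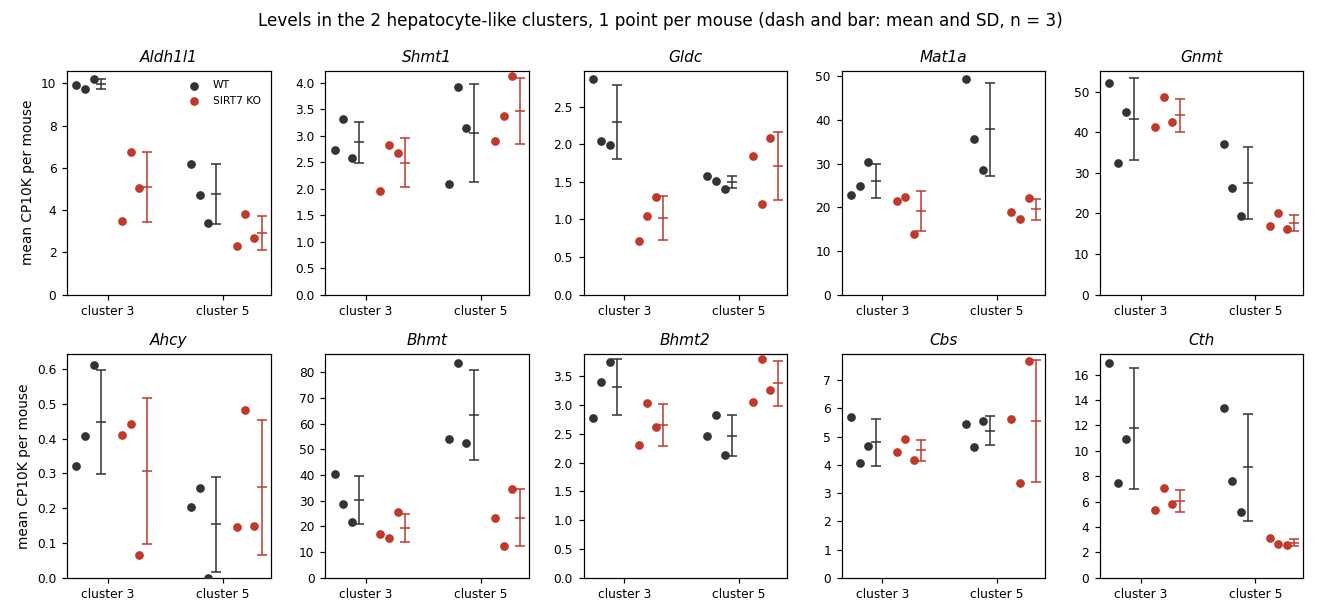
Mean level in CP10K of each enzyme in hepatocyte-like clusters 3 and 5, with 1 point per mouse and the mean and SD of 3 mice beside them. Cth in cluster 5 lies between 2.58 and 3.11 CP10K in the KO mice and between 5.15 and 13.4 CP10K in the WT mice, while Shmt1 and Cbs overlap between genotypes in both clusters.

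By limma on log2 levels with adjustment over all genes, 0 of the 10 enzymes passed the adjusted threshold of 0.05 in hepatocyte-like cells, where 0.0913% of the 9855 genes tested did. At an unadjusted p under 0.05 there were 2, Aldh1l1 and Cth, beside 7.42% of all genes, and limma with voom weights also gave 0. Every KO mouse lay below every WT mouse for 4 of the 10, Aldh1l1, Mat1a, Bhmt and Cth, and for 3.23% of all genes. The median log2 difference of the 10 was -0.39 and 8 were below 0, beside a median of 0.16 and 37% below 0 over all genes tested. Since the enzymes were chosen by this contrast, nothing is read from these shares. In cluster 3, 0 of the 10 passed (0.44% of all genes), 4 were under 0.05 unadjusted (10.2% of all genes) and voom weights gave 2, Aldh1l1 and Gldc. Aldh1l1, Gldc, Mat1a and Cth did not overlap there, with 8.62% of all genes lower in every KO mouse. In cluster 5, 0 passed (0.215% of all genes), 3 were under 0.05 unadjusted (10.3% of all genes) and voom weights gave 2, Bhmt and Cth, while Mat1a, Bhmt and Cth were lower without overlap beside 4.17% of all genes. The log2 level in cluster 5 minus that in cluster 3 was taken within each mouse and compared between genotypes. This cluster difference, KO minus WT, was 1.31 for Gldc (SE 0.46, limma adjusted p = 0.302) and -0.89 for Bhmt (SE 0.36, limma adjusted p = 0.347). Of the 10 enzymes, 0 passed this test, as did 0.0906% of all genes, with 2 at an unadjusted p under 0.05 (12% of all genes) and 1, Gldc, under voom weights.

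**Figure D2:**
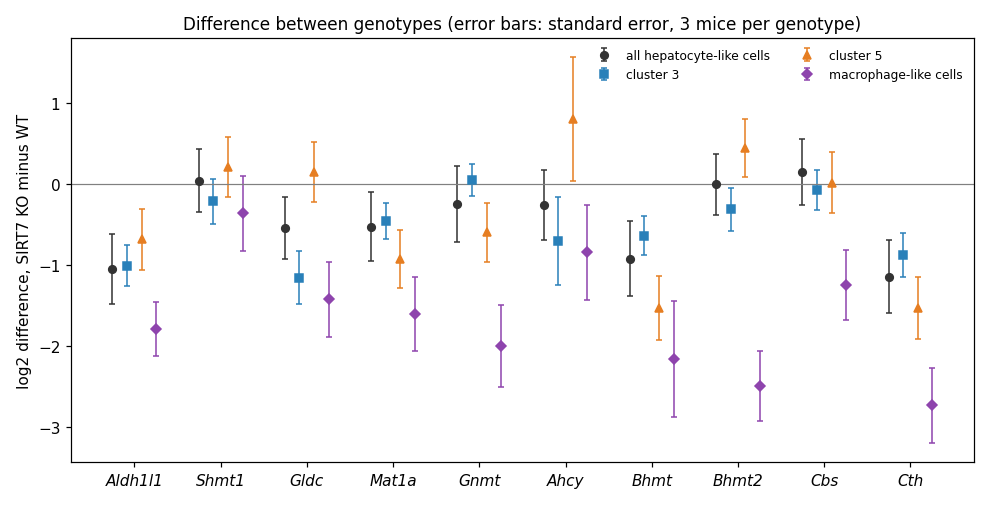
Log2 difference between genotypes (KO minus WT) with its standard error for each enzyme in all hepatocyte-like cells, in clusters 3 and 5 and in macrophage-like cells, 3 mice per genotype. Gldc is at -1.16 in cluster 3 and 0.15 in cluster 5, Bhmt2 is at 0.45 in cluster 5 and -2.50 in macrophage-like cells, and all 10 macrophage-like values are below 0.

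Beside the 10 enzymes, 61 further genes of the same pathways were in the table, and 55 were tested in hepatocyte-like cells. Of these, 0 passed with limma, 4 were under 0.05 unadjusted (7.42% of all genes), and 30 were below 0 with a median log2 difference of -0.10. All 4 genes of methyl transfer were below 0 (median -0.30), as were 4 of 5 genes of choline oxidation and sarcosine (median -0.29), 8 of 16 of the folate cycle (median -0.02), 4 of 6 of glycine and serine (median -0.35) and 2 of 7 of methionine and S-adenosylhomocysteine (median 0.23). The remaining groups were cysteine and glutathione, with 5 of 9 below 0 (median -0.16), and polyamine and methionine salvage, with 3 of 8 (median 0.06). Ethe1, the mitochondrial persulfide dioxygenase that follows cysteine breakdown, was at 3.88, 4.22 and 3.24 CP10K in WT and 1.69, 2.48 and 1.03 CP10K in KO mice, a log2 difference of -1.18 (SE 0.42). Nnmt, which methylates nicotinamide, was at 3.52, 2.24 and 1.30 CP10K in WT and 1.38, 0.680 and 1.02 CP10K in KO mice, where the groups overlapped. Csad, which makes hypotaurine from cysteine sulfinate, was at 0.662, 2.59 and 3.66 CP10K in WT and 3.77, 4.77 and 2.81 CP10K in KO mice, with a log2 difference of 0.97 (SE 0.54).

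Hepatocytes differ along the lobule from the portal to the central vein, so hepatocyte-like cells of each mouse were ordered by 10 periportal and 10 pericentral markers, none of them a member, and divided at that mouse's median. As a check, cells were ordered by 1 part of the markers and the remaining markers were read, and then the reverse. The ordering was weaker in some mice. In WT mice 1 to 3, 20, 15 and 18 of the 20 markers differed the right way, by a median log2 of 0.28, 0.18 and 0.97. In KO mice it was 20, 18 and 20, by 0.99, 0.83 and 1.43. Of the 2933 cells, 369 lay within 0.05 of the cut. Bhmt was higher on the periportal side in all 6 mice, by a log2 of 0.17, 0.56 and 0.21 in WT and 0.62, 0.24 and 0.47 in KO mice. The mean was 0.38 (SE 0.13), which did not pass over all genes (limma adjusted p = 0.89, unadjusted p = 0.0157). Within clusters the Bhmt difference was 0.32 (SE 0.09) in cluster 3 and 0.43 (SE 0.09) in cluster 5, with limma adjusted p of 0.808 and 0.349. These leave out KO mouse 3 in cluster 3 (13 periportal cells) and WT mouse 3 in cluster 5 (17 periportal cells), each under the 20 cells required. Mat1a was also higher on the periportal side in 6 of 6 mice, by 0.01 to 0.30, and Cbs and Gnmt in 5 of 6.

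Of the 10 enzymes, 0 passed the zone test with limma, and 0.142% of all genes did. Only Bhmt of the 10 was under 0.05 unadjusted (4.95% of all genes), and limma with voom weights gave 0. The test within each cluster left out KO mouse 3 in cluster 3 and WT mouse 3 in cluster 5. It gave 0 of the 10 and 0.0% of all genes in cluster 3 and in cluster 5. Under 0.05 unadjusted were 2 enzymes in each, Gnmt and Bhmt in cluster 3 (4.38% of all genes) and Bhmt and Cth in cluster 5 (4.06%). In cluster 3 the count was 1, Gnmt, with voom weights and 2, Gnmt and Bhmt, when the lowest was set against the highest part of the zone order. In cluster 5 it was 3, Gldc, Bhmt and Cth, with voom weights, for those outer parts, with cells of at least 1000 UMIs, and without KO mouse 2, and 0 under the other alternatives.

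The zone difference of Gldc lay higher in KO than in WT mice. The log2 difference between the sides was 0.17, -0.31 and -0.59 in WT and 1.45, 0.98 and 1.09 in KO mice, so every KO mouse lay above every WT mouse. On the pericentral side Gldc was at 2.21, 2.14 and 2.08 CP10K in WT and 0.618, 0.706 and 1.22 CP10K in KO mice, and on the periportal side at 2.49, 1.72 and 1.37 CP10K in WT and 1.77, 1.44 and 2.65 CP10K in KO mice. The zone difference in KO exceeded that in WT by 1.41 (SE 0.35, limma unadjusted p = 0.0016 and adjusted p = 0.721). Of the 10 enzymes, 0 passed this test, as did 0.0% of all genes, with Gldc the 1 under 0.05 unadjusted (5.48% of all genes) and 0 with voom weights. The sides also differed in their mix of clusters, with cluster 5 at 35.5, 14.5 and 56.0% of pericentral and 44.5, 25.6 and 34.0% of periportal cells in WT mice, and at 27.6, 16.2 and 68.7% and 58.3, 19.7 and 92.2% in KO mice. With the zone cut made within each cluster, the excess of Gldc in KO was 1.04 (limma adjusted p = 0.899). The zone ordering was also weaker in WT mice 1 and 2 than in every KO mouse. On the scale of that order, the cut lay at 0.67, 0.39 and 0.48 in WT and 0.58, 0.44 and 0.61 in KO mice. With 1 cut for all mice the excess was 1.41 (limma adjusted p = 0.659). The part of the uneven ordering in the Gldc difference was not tested. In the pericentral cells 0 of the 10 passed between genotypes (0.103% of all genes, with 4 of the 10 and 6.25% of all genes under 0.05 unadjusted), and Aldh1l1, Gldc, Mat1a, Bhmt and Cth were lower in every KO mouse beside 3.44% of all genes. In the periportal cells 0 passed (0.131% of all genes, with 2 of the 10 and 8.47% of all genes under 0.05 unadjusted), and Aldh1l1, Mat1a, Bhmt and Cth were lower in every KO mouse beside 3.09%. Limma with voom weights gave 0 on both sides.

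**Figure D3:**
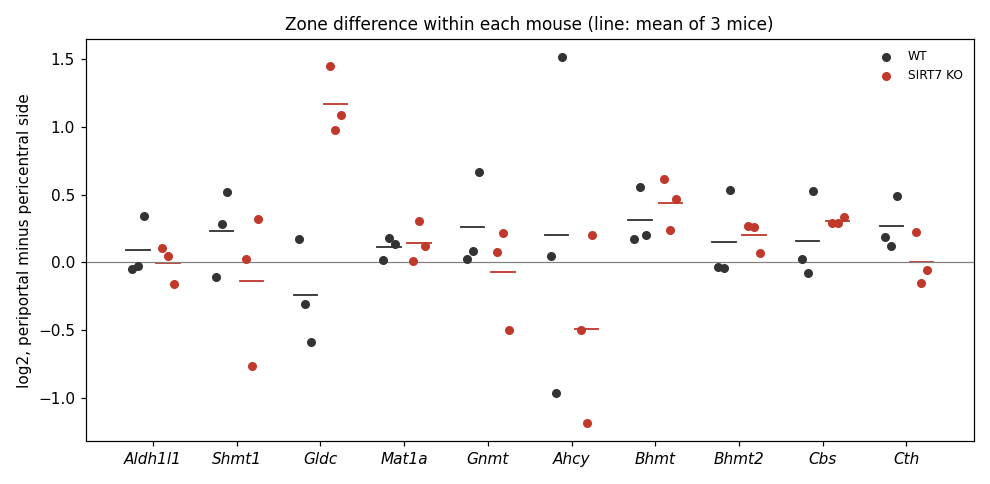
Log2 difference between the periportal and the pericentral side within each mouse, with 1 point per mouse and a line at the mean of 3 mice per genotype. Bhmt is above 0 in all 6 mice, and Gldc lies between -0.59 and 0.17 in WT and between 0.98 and 1.45 in KO mice.

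Across the 6 mice and both sides, the mean log2 level of the 10 enzymes was compared with that of every other gene with a mean of at least 0.5 CP10K. Among the genes most like it were Sult2a3, a sulfotransferase (Pearson r = 0.86), Hao2, a peroxisomal hydroxyacid oxidase (0.86), Mt1, a metallothionein (0.85), and Ndufa3, a subunit of mitochondrial complex I (0.85), of 3248 genes compared over 12 values. The sides of a mouse share a library, and no test was made.

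RNA of the 10 enzymes was also counted in nonparenchymal cells. RNA that leaks from broken hepatocytes can enter every droplet. The comparison with reference genes assumes that a gene present only as free RNA keeps 1 ratio to the hepatocyte level that other hepatocyte genes share. That level pools clusters 3 and 5, whose mix differed between mice, and the effect of the mix on the ratio was not tested. Summed over the 10 enzymes, nonparenchymal cells held 43.7, 37.0 and 18.9 CP10K in WT and 14.5, 5.45 and 7.41 CP10K in KO mice, which was 26.9, 29.0 and 14.9% and 16.2, 5.21 and 7.64% of the sums in hepatocyte-like cells of the same mice. The 10 reference genes for free RNA, abundant plasma protein genes such as Alb and Apoa1, summed to 270.4, 190.9 and 103.3 CP10K in nonparenchymal cells of WT and 132.8, 29.0 and 102.8 CP10K in KO mice. Their groups overlapped, with a log2 ratio of the means of -1.09 (exact permutation test, two-sided, p = 0.2, where 0.1 is the smallest p that 3 against 3 mice allow), and their part in the lower enzyme levels was not tested.

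In macrophage-like cells, 46 to 243 per WT mouse and 84 to 2639 per KO mouse, the levels of Aldh1l1 were 2.50, 2.29 and 1.26 CP10K in WT and 0.750, 0.319 and 0.591 CP10K in KO mice. Cth was at 3.84, 2.93 and 1.45 CP10K in WT and 0.760, 0.187 and 0.256 CP10K in KO mice, a log2 difference of -2.74 (SE 0.47). Bhmt2 was at 0.759, 1.56 and 0.731 CP10K in WT and 0.276, 0.0687 and 0.0961 CP10K in KO mice, from 5 to 164 UMIs per mouse, a log2 difference of -2.50 (SE 0.43). The groups did not overlap for any of these 3, whereas Bhmt2 overlapped in hepatocyte-like cells of the same mice. All 10 enzymes were below 0 in macrophage-like cells, with a median log2 difference of -1.70, and 1, Bhmt2, passed with limma (adjusted p = 0.0378), beside 0.211% of all genes. Bhmt2 lost the call without WT mouse 1, 2 or 3 or KO mouse 2 or 3. Lower values in every KO mouse were found for 8 of the 10, all but Shmt1 and Ahcy, and for 9.77% of all genes. Since the enzymes were chosen with genotype differences in these mice known, nothing is read from such calls and shares between genotypes. The same holds for the other nonparenchymal classes.

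The other nonparenchymal classes showed the same direction, and share the mice and their free RNA with the macrophage-like cells. All 10 enzymes were below 0 in T and NK-like cells (median -1.44), in dendritic-like cells (median -1.66) and in endothelial-like cells (median -1.75, 3 WT and 2 KO mice), as were the 9 tested in plasma-like cells (median -1.75, 2 mice per genotype). Past the threshold with limma was 1 in T and NK-like cells, Aldh1l1 at -1.88 (SE 0.33), beside 0.12% of all genes. In endothelial-like cells there were 4, Aldh1l1 at -1.83 (SE 0.37), Shmt1 at -1.93 (SE 0.46), Gldc at -2.76 (SE 0.57) and Cth at -1.95 (SE 0.36), beside 0.216%. With voom weights 0 passed in T and NK-like cells and 0 in endothelial-like cells. In dendritic-like cells 0 passed (0.041% of all genes, with 8 of the 10 and 5.99% of all genes under 0.05 unadjusted), and in plasma-like cells 0 passed (0.0784%, with 7 of the 9 and 7.02% of all genes under 0.05 unadjusted), where voom weights gave 0 and 2. Every KO mouse was below every WT mouse for 6 of the 10 in T and NK-like cells, with 6.36% of all genes, and for 7 in dendritic-like cells, with 6.8%. In T and NK-like cells Aldh1l1 lost its call without WT mouse 1, 2 or 3 or KO mouse 3. In endothelial-like cells 0 of these 4 passed without WT mouse 1, 1, Cth, without WT mouse 2 and 3, all but Shmt1, without WT mouse 3. Without KO mouse 1, 7 of the 10 passed in T and NK-like and 6 in dendritic-like cells. Endothelial-like cells without KO mouse 1 or 2, and plasma-like cells likewise, leave 1 KO mouse, so no result is read there.

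Each enzyme was then set against the reference genes within a mouse, as the log2 of its ratio to the hepatocyte-like level minus that of the reference genes. A value below 0 departs from the assumed shared ratio, and 50 of the 9946 genes tested were called below it in macrophage-like cells. In macrophage-like cells the reference genes were at a median of 22.1, 19.6 and 13.8% of the hepatocyte-like level in WT and 13.8, 4.64 and 15.2% in KO mice. The median of the 10 enzymes over that level was 0.09, 0.32 and 0.30 in WT and 0.04, -0.29 and -0.83 in KO mice, on the log2 scale. Aldh1l1 lay above the reference in 6 of 6 macrophage-like samples, by a mean of 0.50 (SE 0.40), and did not pass (limma adjusted p = 0.226). Bhmt lay below it in 6 of 6, by a mean of -0.90 (SE 0.39, limma adjusted p = 0.0224), and also below it in dendritic-like cells (-0.90, SE 0.35, adjusted p = 0.0114) and in endothelial-like cells (-0.75, SE 0.30, adjusted p = 0.0211). These calls of Bhmt were lost without WT mouse 3 or KO mouse 1 or 3 in macrophage-like, without WT mouse 3 or KO mouse 3 in dendritic-like and without WT mouse 1 or 3 in endothelial-like cells, with means between -1.06 and -0.63 over the 3 classes and each mouse left out. Cbs in dendritic-like cells was at -3.63 in KO mouse 3 and at -0.72 to 0.17 in the other 5 mice, so the mean of -0.88 (SE 0.40, limma adjusted p = 0.0331) rests on that mouse, and without it the mean was -0.33 (SE 0.45, limma adjusted p = 0.492).

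Above the level of free RNA, 2 of 49 tests of an enzyme in a class passed with limma, both of Ahcy. It stood 1.33 (SE 0.51, limma adjusted p = 0.0104) above in macrophage-like cells, where 92.3% of all genes were above. In dendritic-like cells it stood 0.97 (SE 0.47, limma adjusted p = 0.0428) above, where 90.1% of all genes were. These rest on 1 to 48 and 1 to 7 UMIs per mouse, and 0 of the tests passed among genes of at least 0.5 CP10K. In dendritic-like cells the call of Ahcy was lost without WT mouse 1 or 3 or KO mouse 1 or 3, and without WT mouse 2, as in macrophage-like cells without WT mouse 1, Ahcy was under the filter on low values. In T and NK-like cells 0 of the 10 were above (85.2% of all genes), in endothelial-like cells 0 of the 10 (86.2%) and in plasma-like cells 0 of the 9 tested (90.4%), also at an unadjusted p under 0.05. A level that did not pass is read neither as expression by these cells nor as its absence, and the source of this RNA was not tested.

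**Figure D4:**
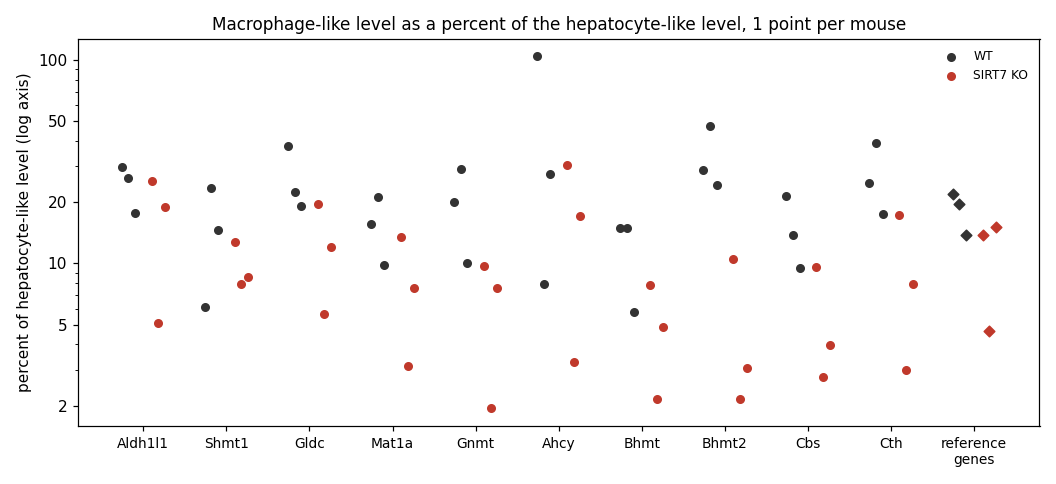
Level in macrophage-like cells as a percent of the level in hepatocyte-like cells of the same mouse, on a log axis, with 1 point per mouse and the median of the 10 reference genes as diamonds. Bhmt lies between 2.15 and 14.9% and under the reference genes of the same mouse in 6 of 6 mice, and Bhmt2 is 24.2% or more in WT and 10.5% or less in KO mice.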

How the data were processed

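Per the study's methods and the processing notes of its labels, the authors aligned reads to mm10 with Cell Ranger 6.0.0, removed cells with fewer than 500 genes or over 5% mitochondrial UMIs and genes seen in fewer than 3 cells, and deposited ln(CP10K + 1), the natural log of UMIs per 10000 UMIs of a cell plus 1. The table holds 44 genes with a value in fewer than 3 cells and a highest mitochondrial share of 5.01%. UMIs were worked back from the smallest step of each cell, and came out whole, within 0.02, for 12961041 of 12961041 nonzero values. Cells were mapped to mice by barcode ending, with 0 unmapped.

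Cells were clustered with scanpy 1.11.5 and leidenalg 0.10.2 (1000 variable genes, 50 components, 3 neighbors from each mouse, resolution 0.35), and clusters were named from marker lists. A doublet caller marked 46 of 11610 cells, too few to have worked, so doublets were in effect not removed. A further 22 cells with over 1% hemoglobin were left out. Levels were compared as log2(mean CP10K per mouse + 0.05), so fold changes of low genes are understated. Genes of at least 0.05 CP10K were tested with limma 3.58.1 in R 4.3.3 (trend and robust, two-sided, Benjamini-Hochberg over all genes), in classes with 20 cells per mouse and 2 such mice per genotype. The limma code was run on simulated data whose added spread between mice was set below the fitted one, without cluster mix or free RNA. That run bears on the code and not on how the tests perform in these data. Cells were never taken as replicates. The labels do not tie replicate numbers to a shared litter or day. Levels are 3' end counts, so a gene is compared between mice and not with another gene.

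The members and lists were chosen with earlier results of these data known. All 10 members were named, plus the 3 pathway genes with the largest difference and at least 0.5 CP10K and the 5 genes most like the members, of which 1 is not reported here. Copies of the last 500 bases were sought with blastn 2.17.0 (at least 95% identity over 91 bases). Alternatives were another pseudocount, other filters, the mean of logged values, voom weights, median centring, a replicate block, other cuts of the zones and of the cells, other reference profiles, and leaving out each mouse.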

Additional observations from a re-analysis of the deposited data

Results flagged for a closer look

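Of 59 groups of 4 to 6 mice, 1 for each enzyme and test against free RNA or between zones, 8 held a mouse that stood apart from the others by Dixon's criterion, where chance gives about 1 in 20. All 8 are log2 ratios of an enzyme to the free RNA level in a nonparenchymal class. In macrophage-like cells, Aldh1l1 stood high in KO mouse 1 at 0.95, Ahcy low in WT mouse 2 at -0.068, from 1 UMI, and Cbs low in KO mouse 3 at -1.70. In dendritic-like cells, KO mouse 3 stood low in Aldh1l1 at -0.69, in Gldc at -1.75, in Gnmt at -2.44 and in Cbs at -3.63. It had 49 such cells, against 56 each in WT mice 1 and 2. All flags of KO mouse 3 use its same hepatocyte-like cells, 80.4% of them of cluster 5, so they are not separate events. The part of that mix was not tested. In plasma-like cells, Bhmt2 stood low in KO mouse 1 at -1.88.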

How the results depend on the processing

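In all hepatocyte-like cells, on the pericentral and periportal sides, in the test of zone by genotype and over the pathway genes, 0 genes passed under every alternative run, leaving out any 1 mouse included. In cluster 3, voom weights gave 2 members and cells with at least 1000 UMIs gave 1, Aldh1l1. In cluster 5, voom weights gave 2, and leaving out a mouse gave 0 to 2 (Bhmt and Cth without KO mouse 3). A zone cut within each cluster, chosen after seeing the data, gave 1, Bhmt at 0.36, in the zone test. Voom weights gave 1, Gldc, in the test of cluster by genotype.

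In macrophage-like cells (1 member as reported), the count was 0 with a pseudocount of 0.5 CP10K, with no filter, with genes of at least 0.5 CP10K, with voom weights and with median centring, 4 with the mean of logged values, and 0 to 4 without 1 mouse. In the other nonparenchymal classes (5 as reported), it was 10 with no filter, 0 with genes of at least 0.5 CP10K and 17 with the mean of logged values. It was 2 with voom weights, Aldh1l1 and Cth in plasma-like cells, which were not among the 5, and 3 with median centring. Without WT mouse 1 it was 0. Without KO mouse 1 it was 7 in T and NK-like and 6 in dendritic-like cells. Endothelial-like cells without KO mouse 1 or 2 keep 1 KO mouse, so no count is given for them there. Plasma-like cells could not be fitted without KO mouse 1 or 2 or WT mouse 2 or 3. Above free RNA (2 as reported), it was 21 with a pseudocount of 0.5 CP10K, 0 with genes of at least 0.5 CP10K, 34 with the mean of logged values, and 0 to 5 without 1 mouse. The pseudocount adds as much to both levels of such a ratio and so raises it for low genes. The causes of the other changes were not tested. The reference genes differed by a log2 of -1.51 to -0.68 without 1 mouse.

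Zone differences near 0 turned: Shmt1 to -0.043 with voom weights, -0.00964 with median centring, -0.029 with at least 1000 UMIs, -0.045 for the lowest against the highest part of the zone order, -0.054 with 1 cut for all mice and -0.0196 with a cut within clusters, Aldh1l1 to -0.013 with median centring and -0.0226 for the outer parts, and Ahcy to 0.169 for the outer parts and 0.0121 with a cut within clusters. Without 1 mouse they ranged from -0.0475 to 0.209 for Shmt1, -0.0165 to 0.084 for Aldh1l1, -0.0185 to 0.213 for Gnmt and -0.479 to 0.0607 for Ahcy. In hepatocyte-like cells median centring lowers each difference by 0.16, which turns Shmt1 and Cbs below 0.

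With the replicate block, the counts were 3 in macrophage-like cells, 14 in the other classes and 0 in each hepatocyte-like comparison. Of the 14, 6 were in dendritic-like and 8 in endothelial-like cells. In endothelial-like cells WT mouse 3 has no KO partner and the block leaves very few degrees of freedom, so nothing is read from that rise. Plasma-like cells could not be fitted with the block. The deviations of same-numbered mice correlated at r of 0.00, 0.21 and 0.11 in hepatocyte-like and 0.15, -0.04 and -0.14 in macrophage-like cells. In hepatocyte-like cells, mice 2 and 3 of each genotype correlated best with their own number and mouse 1 did not. Within cluster 3 or cluster 5 no mouse did, and in macrophage-like cells only KO mouse 1 did. With so few mice this check cannot exclude a shared litter or day, so whether the numbers pair the mice is not settled. Depth limits Ahcy most, with 5 to 41 UMIs per mouse.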

Other observations

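Cells of 2 further classes had too few mice for a comparison between genotypes. In B-like cells, the 10 enzymes summed to 67.5 and 36.9 CP10K in WT mice 1 and 3 and 54.1 CP10K in KO mouse 1, where the reference genes for free RNA summed to 388.5, 184.6 and 303.2 CP10K. In neutrophil-like cells, the enzymes summed to 84.2 CP10K in WT mouse 1 and 16.2 and 9.14 CP10K in KO mice 1 and 2, with 480.3, 133.0 and 37.5 CP10K for the reference genes. In B-like and in neutrophil-like cells the mouse with the most enzyme RNA also held the most reference RNA.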
